A study of Oryctolagus cuniculus with 20 samples.

Results

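SCARNA20 and SNORND104 are small non-coding RNAs that guide chemical modification of other RNAs, and their levels were described in the tricuspid valves of rabbits treated with serotonin, pergolide or dexfenfluramine. The pair makes up 2 of the 23669 genes counted, and both passed the filter on low counts. They were chosen because SCARNA20 was among the largest rises and SNORND104 among the largest falls in dexfenfluramine-treated compared to non-treated valves, so their values in that comparison are a description, given without a p-value. Although grouped as small nuclear RNAs, neither is one of the spliceosomal RNAs that this name usually means.

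RNA was sequenced from the tricuspid valves of 20 female New Zealand White rabbits, 5 per group, which were 8 weeks old at the start and were kept for 16 weeks. Non-treated rabbits (control) received water, and the other groups received in drinking water serotonin at 80 mg/kg, pergolide at 0.5 mg/kg or dexfenfluramine at 20 mg/kg per day. The dose of dexfenfluramine is that of the sample labels and of the study's methods, whereas the study's results text gives a lower one, so that the dose is in doubt. Serotonin was given as the natural agonist, pergolide is an ergot derivative once used in Parkinson disease, and dexfenfluramine is an amphetamine-like appetite suppressant. Each animal gave 1 valve sample, which was whole tissue, so that fewer cells of a type and less RNA per cell cannot be told apart.

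Small nucleolar RNAs fall into a pair of classes that carry different proteins. Box C/D RNAs guide methylation of ribose, and box H/ACA RNAs guide the conversion of uridine to pseudouridine, mostly in ribosomal RNA. Small Cajal body RNAs have the same architecture but reside in Cajal bodies, nuclear compartments where they act on the RNAs of the spliceosome. Most of these RNAs in vertebrates are cut out of introns of host genes. SCARNA20 is a box H/ACA RNA of Cajal bodies, predicted to guide pseudouridylation of the U12 RNA of the minor spliceosome. SNORND104 is the family name of U104, also called SNORD104, a box C/D RNA that guides methylation of 28S ribosomal RNA. No sequence or position of either rabbit gene was used here.

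The values are reads counted per gene, and between 3247091 and 5921025 reads per valve fell on genes. Levels are in CPM, the count relative to the total of the valve scaled by TMM, a factor that aligns the bulk of the genes between valves. At this depth 3 counts correspond to between 0.481 CPM in dexfenfluramine replicate 5 and 1.08 CPM in control replicate 1, and lower levels were not measurable. Both RNAs were near that floor in part of the valves. The mean level of SCARNA20 exceeded that of 12.6% of the 8683 tested genes and SNORND104 exceeded 18.6%, in counts not corrected for gene length.

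SCARNA20 (ENSOCUG00000028463) was highest in every dexfenfluramine valve. In non-treated valves 1 to 5, 0, 4, 11, 4 and 16 reads were counted. In serotonin valves the reads numbered 11, 1, 1, 3 and 3, and in pergolide valves 17, 17, 12, 14 and 8. In dexfenfluramine valves they numbered 42, 29, 43, 45 and 53. The groups summed to 35, 19, 68 and 212 reads in that order, so that the low groups rest on few molecules. For the 29 reads of dexfenfluramine replicate 2, the lowest of its group, the exact 95% Poisson interval was 19.4 to 41.7 reads. For the highest count elsewhere, 17 reads in pergolide replicates 1 and 2, it was 9.90 to 27.2 reads, and the intervals overlap. These intervals cover counting error only, and reads copied by PCR are not independent molecules.

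In CPM, SCARNA20 stood at 0, 1.08, 1.93, 1.18 and 3.68 CPM in non-treated valves 1 to 5. Serotonin valves held 2.56, 0.317, 0.292, 0.804 and 0.843 CPM. Pergolide valves held 3.26, 2.91, 2.53, 2.46 and 1.42 CPM. Serotonin replicate 1 and control replicate 3 lay within the range of the pergolide valves and control replicate 5 above it, while the other 4 serotonin valves lay at or under 3 counts. Dexfenfluramine valves held 9.04, 5.00, 7.74, 8.39 and 8.50 CPM. All 5 of these values lay above all 15 others, a pattern shared by 0.173% of the tested genes, from which nothing is read because the gene was chosen for its rise in this group.

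**Figure D1:**
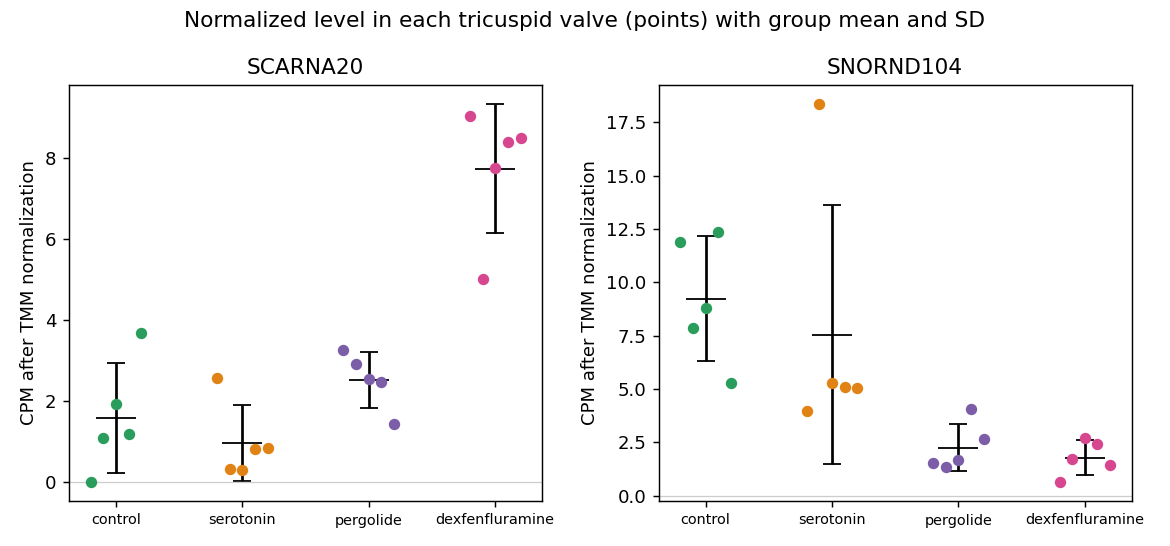
Level of SCARNA20 (left) and SNORND104 (right) in each of the 20 tricuspid valves, in CPM after TMM normalization, by treatment group. Points are valves, wide bars are group means and whiskers the SD (n = 5); SCARNA20 is separated in the dexfenfluramine group, from 5.00 to 9.04 CPM, whereas SNORND104 is low in both drug groups, with 0.646 to 4.05 CPM.

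The mean level of SCARNA20 was 0.964 CPM ± 0.931 (SD, n = 5) with serotonin, 1.58 ± 1.36 (SD, n = 5) without treatment, 2.52 ± 0.689 (SD, n = 5) with pergolide and 7.73 ± 1.60 (SD, n = 5) with dexfenfluramine. In this order the valves of the first 3 groups overlapped each other, pergolide and serotonin only through serotonin replicate 1, and those of dexfenfluramine overlapped none. Compared to non-treated valves, the log2 fold change was 2.16 with dexfenfluramine (standard error 0.42), 0.55 with pergolide (standard error 0.47) and -0.72 with serotonin (standard error 0.57). The values for pergolide and serotonin were close to their own standard errors, and moved to 0.06 with svaseq for pergolide and to -1.52 without serotonin replicate 1 for serotonin. All 3 comparisons share the non-treated valves that chose the gene, and no p-value is given.

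SNORND104 (ENSOCUG00000019567) moved the other way and was low with both drugs. Reads numbered 33, 29, 50, 42 and 23 in non-treated valves 1 to 5, and 17, 58, 18, 19 and 18 in serotonin valves. They numbered 8, 8, 8, 23 and 15 in pergolide valves and 3, 10, 15, 13 and 9 in dexfenfluramine valves. The groups summed to 177, 130, 62 and 50 reads, and here the drug groups are the ones with few molecules. Dexfenfluramine replicate 1, with 3 reads, stood at the floor.

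Non-treated valves held 11.9, 7.86, 8.78, 12.4 and 5.29 CPM of SNORND104. Serotonin valves held 3.96, 18.4, 5.26, 5.10 and 5.06 CPM. Replicate 2 was thus the highest of all 20 valves, while the other 4 serotonin valves lay under the lowest non-treated one, by as little as 5.26 against 5.29 CPM. Pergolide valves held 1.53, 1.37, 1.69, 4.05 and 2.67 CPM. Dexfenfluramine valves held 0.646, 1.72, 2.70, 2.42 and 1.44 CPM. All 10 drug-treated valves lay below all 5 non-treated ones, as did those of 6.16% of the tested genes. For dexfenfluramine alone that share was 8.71%, and it is the contrast that chose the gene. For pergolide alone it was 8.34%. On total counts without TMM the separation was lost, since pergolide replicate 4, at 5.09 CPM, and dexfenfluramine replicate 3, at 4.62 CPM, lay above control replicate 5, at 4.17 CPM. Serotonin replicates 1, 3 and 5 then also lay above that valve, at 4.37, 5.10 and 4.93 CPM.

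**Figure D2:**
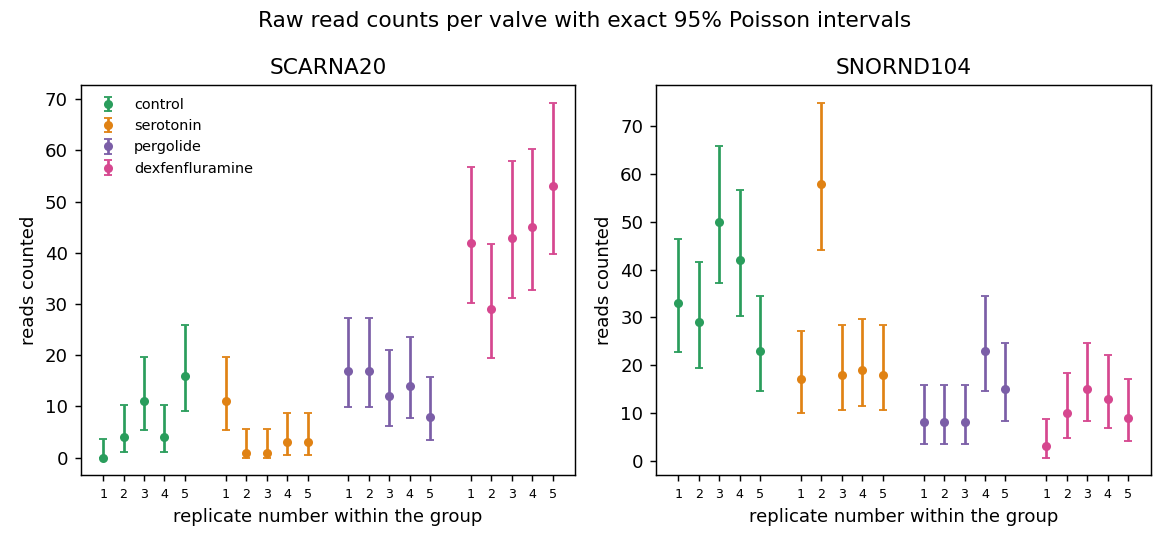
Raw reads counted on SCARNA20 (left) and SNORND104 (right) in each valve, ordered by treatment group and replicate number, with exact 95% Poisson intervals as bars. Dexfenfluramine valves held 29 to 53 reads of SCARNA20 against 0 to 17 elsewhere, and serotonin replicate 2 held 58 reads of SNORND104.

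The mean level of SNORND104 was 1.79 CPM ± 0.816 (SD, n = 5) with dexfenfluramine, 2.26 ± 1.12 (SD, n = 5) with pergolide, 7.55 ± 6.07 (SD, n = 5) with serotonin and 9.24 ± 2.94 (SD, n = 5) without treatment. The drugs overlapped each other, and so did serotonin and non-treated valves, while pergolide and serotonin met in 1 valve of each. Compared to non-treated valves, the log2 fold change was -2.32 with dexfenfluramine (standard error 0.43), -1.99 with pergolide (standard error 0.42) and -0.30 with serotonin (standard error 0.39). The serotonin value was smaller than its standard error, and without replicate 2 it was -0.92. No p-value is given for these, because they share the non-treated valves that chose the gene.

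The comparison of pergolide with serotonin uses neither group of the contrast in which the RNAs were chosen, and shows whether valves treated with an ergot drug or with serotonin held different levels. Symbols of both RNAs came from the study's table of genes that differed from non-treated valves, which also drew on pergolide and serotonin valves. The p-values below are therefore not free of selection. SNORND104 fell by 1.69 on the log2 scale (standard error 0.43) in pergolide compared to serotonin valves, with an adjusted p of 0.00556 by edgeR's quasi-likelihood test with Benjamini-Hochberg adjustment over all tested genes. Pergolide replicate 4, at 4.05 CPM, was above serotonin replicate 1, at 3.96 CPM, and no other pair of valves from these groups overlapped. An exact two-sided permutation test of 5 against 5 valves on log2 CPM gave p = 0.0159. With only the groups compared in the fit, SNORND104 had a log2 fold change of -1.69. Its adjusted p was then 0.0159 by edgeR's quasi-likelihood test with Benjamini-Hochberg adjustment. Without serotonin replicate 2 the log2 fold change was -1.09, with an adjusted p of 0.0302 by edgeR's quasi-likelihood test with Benjamini-Hochberg adjustment, and with each of the 10 valves left out in turn this p stayed between 0.00336 and 0.0302. With 4 surrogate variables estimated by svaseq in the fit, the fall was -1.08 and was no longer called, with an adjusted p of 0.142 by the same test of edgeR with Benjamini-Hochberg adjustment, where the other alternatives gave 0.000703 to 0.0401.

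SCARNA20 did not pass the threshold in this comparison. Its log2 fold change was 1.27 (standard error 0.52), with an adjusted p of 0.0760 by edgeR's quasi-likelihood test with Benjamini-Hochberg adjustment. The exact two-sided permutation test gave p = 0.0317, not adjusted for the pair of RNAs examined. With only the groups compared in the fit, SCARNA20 had a log2 fold change of 1.26. Its adjusted p was then 0.0538 by edgeR's quasi-likelihood test with Benjamini-Hochberg adjustment. All 5 pergolide valves lay above 4 of the serotonin valves, and 2 of them above serotonin replicate 1. Without that valve the log2 fold change was 2.08, with an adjusted p of 0.0115 by edgeR's quasi-likelihood test with Benjamini-Hochberg adjustment, and with any other valve left out the p lay between 0.0581 and 0.166. DESeq2 called the gene, with 1.29 (Benjamini-Hochberg adjusted p of 0.0322), and the other alternatives gave 0.0538 to 0.345. Thus 1 of the 2 RNAs was called, where 27.5% of all tested genes were. Of the tested genes with a symbol, as both RNAs have, 22% were higher and 25.9% lower. Nothing is therefore read from this count.

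Dexfenfluramine and pergolide valves overlapped in SNORND104 and not in SCARNA20, while no gene passed the adjusted threshold between these groups (0% of all tested genes). The log2 fold change of SCARNA20 in dexfenfluramine compared to pergolide valves was 1.61 (standard error 0.38), and no valve overlapped, as for 0.887% of the tested genes. For SNORND104 it was -0.33 (standard error 0.48), less than its error, and -0.01 without pergolide replicate 4. Compared to serotonin valves, dexfenfluramine valves differed by 2.88 in SCARNA20 (standard error 0.46) and by -2.02 in SNORND104 (standard error 0.44), and in neither did the groups overlap. Without serotonin replicate 2 the value of SNORND104 was -1.41, and without serotonin replicate 1 that of SCARNA20 was 3.69. Dexfenfluramine valves lay all above serotonin valves in 8.75% of the tested genes and all below them in 12.2%. Without TMM SNORND104 did overlap, as dexfenfluramine replicate 3, at 4.62 CPM, exceeded serotonin replicates 4 and 1, at 3.89 and 4.37 CPM. The dexfenfluramine valves are those that chose both RNAs, and no p-value is given.

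Genes called in dexfenfluramine compared to non-treated valves were ranked where they had a symbol, an average log2 CPM of 1 or more and separate groups. SCARNA20 ranked 2 of 623 by size of rise and SNORND104 ranked 3 of 653 by size of fall. That both were among the called genes restates the contrast that chose them, and nothing is read from it. Just before SCARNA20 stood SNORA74, another box H/ACA RNA, with a log2 fold change of 3.04, and just after it RPS7, a ribosomal protein, with 1.96. The value of SNORA74 is not exact, since its non-treated valves held 0 to 4 reads. Just before SNORND104 stood TNNT2, the cardiac troponin T, with -2.79, and just after it the mitochondrial gene ND6 with -2.27. The valves of a group varied more in both RNAs than in most genes. The biological coefficient of variation that edgeR fitted was 0.315 for SCARNA20 and 0.410 for SNORND104, against a median of 0.154 over the tested genes. That median covers genes of all levels, while both RNAs had low counts, and genes of similar level were not compared.

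Scaling moved the sizes of the differences, and in SNORND104 the separation of the groups, but not the order of the group means. The most abundant gene, ENSOCUG00000029084, accounted for 40.7% ± 7.40 (SD, n = 5) of all reads in non-treated valves, 35.9% ± 4.07 (SD, n = 5) with serotonin, 32.9% ± 2.13 (SD, n = 5) with pergolide and 29.1% ± 5.65 (SD, n = 5) with dexfenfluramine. The TMM factors ran the opposite way, with means of 0.821 ± 0.258, 0.896 ± 0.180, 1.12 ± 0.135 and 1.31 ± 0.248 (SD, n = 5 each). On total counts without TMM, a scaling chosen after the data were seen, the mean of SCARNA20 was 1.38, 0.951, 2.75 and 10.0 CPM in non-treated, serotonin, pergolide and dexfenfluramine valves. SNORND104 then held 7.32, 6.08, 2.62 and 2.45 CPM in the same order.

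The other small RNAs of these classes place the pair among their kin. The DEG table of the study, the source of symbols here, named 47 others, of which 46 had an identifier and 33 passed the filter. Since that table lists genes that differed between these treated and non-treated valves, every list of genes below was in part selected for change, and neither the number called nor the direction is independent evidence, also in pergolide compared to serotonin valves. The shares of called genes are therefore given over all tested genes and over the 3456 tested genes with a symbol. Those with a symbol were higher in 28.1% and lower in 28.6% with pergolide, and higher in 31.8% and lower in 34.3% with dexfenfluramine, compared to non-treated valves. The 13 that were not tested had at most 7 to 19 reads in any valve.

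Box C/D RNAs, the class of SNORND104, were mostly lower with both drugs. Of 18 tested, 16 were lower and 1 higher in pergolide compared to non-treated valves, where 24.8% of all tested genes were called. With dexfenfluramine 15 were lower and 1 higher, against 28.9% of all tested genes. Among the lower ones, SNORD47 and SNORD75 held 10 and 20 reads in all pergolide valves together. SNORD47 held 21 reads in all dexfenfluramine valves. These levels were near the floor, so that the sizes of these falls are not exact. Without TMM 7 were lower with pergolide and 6 with dexfenfluramine, where 1.00% and 1.36% of all tested genes were lower. With serotonin none was called by edgeR, and none at an unadjusted p under 0.05, by DESeq2 or by limma-voom, against 1.19% of all tested genes called. The median log2 fold change of the class was -1.51 with pergolide, -1.35 with dexfenfluramine and -0.18 with serotonin, and over all tested genes these medians were 0.02, 0.03 and 0.01.

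In pergolide compared to serotonin valves, 14 box C/D RNAs fell and 1 rose, where 15.1% of all tested genes were lower and 12.4% higher, and of those with a symbol 25.9% and 22%. Without TMM 6 were called lower, where 2.67% of all tested genes were. SNORD47, counted among the falls, rests on 39 reads in all serotonin valves together and 10 in all pergolide valves. With 0.178 to 0.632 CPM its pergolide level was near the floor, and it passed the filter through the other groups. The size of its fall is not exact, and nothing is read from its call. The median of the class was -1.29 against 0.03 over all tested genes. The fall of SNORND104, by 1.69, lay within the range of its class. The largest falls without overlap of the valves, a pattern of 11.9% of the tested genes, were those of SNORD99, SNORD14 and SNORD81. SNORD99 fell by 2.04 (standard error 0.42), from 14.7 CPM ± 10.2 (SD, n = 5) to 3.54 ± 0.742 (SD, n = 5), with an adjusted p of 0.00111 by edgeR's quasi-likelihood test with Benjamini-Hochberg adjustment. SNORD14, or U14, which is needed for processing of 18S ribosomal RNA, fell by 1.67 (standard error 0.40), and SNORD81 fell by 1.43 (standard error 0.35). Over the alternative settings the weakest log2 fold changes of SNORD99, SNORD14 and SNORD81 were -1.28, -0.85 and -0.57. Each of them lost its call with svaseq. SNORD2 was the exception, and rose by 1.10 (standard error 0.23), with an adjusted p of 0.00105 by edgeR's quasi-likelihood test with Benjamini-Hochberg adjustment; it was singled out after its value was seen.

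**Figure D3:**
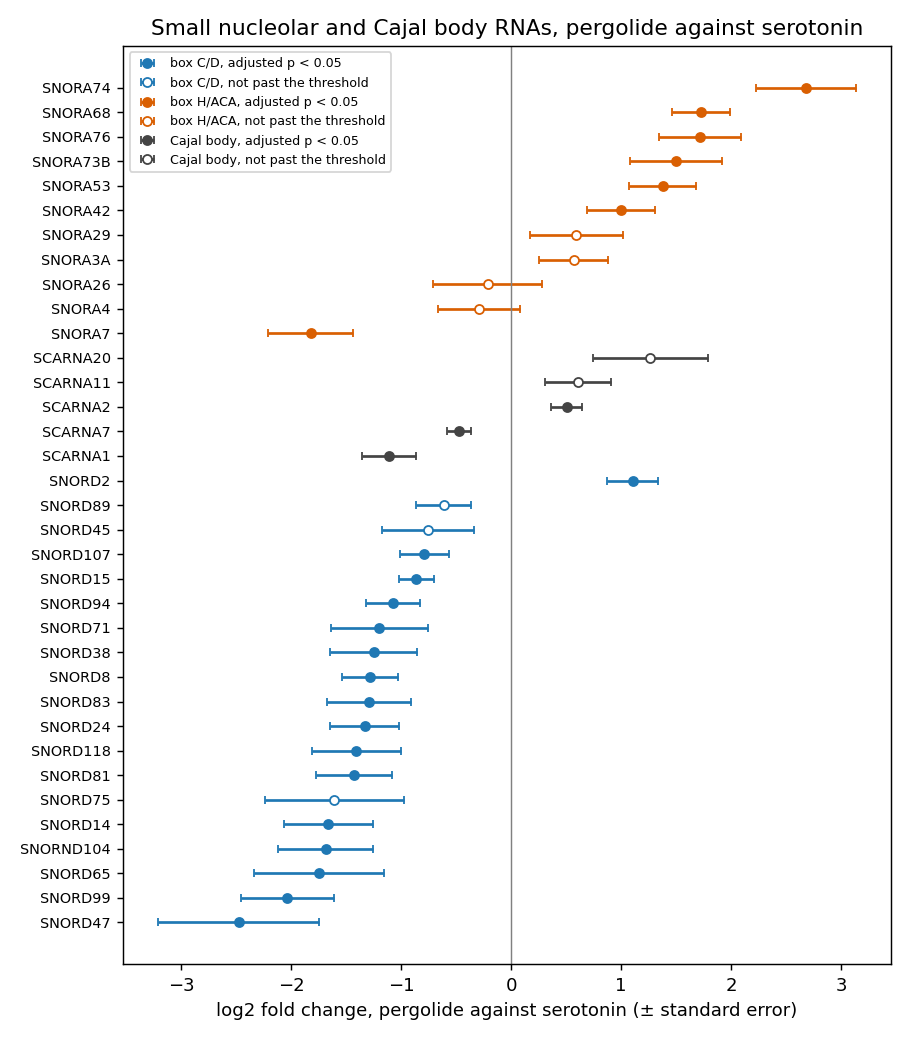
Log2 fold change of each tested small RNA in pergolide compared to serotonin valves, with standard errors as bars, grouped by class; filled points passed the adjusted threshold. Most box C/D RNAs lie on the low side, with SNORND104 at -1.69, and 8 of the 11 box H/ACA RNAs on the high side.

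Box H/ACA RNAs, whose architecture SCARNA20 shares, were more often higher. Of 11 tested, 6 were higher and 2 lower in pergolide compared to non-treated valves, and the same counts were found with dexfenfluramine. Of all tested genes 12.1% were higher and 12.7% lower with pergolide, and 13.5% and 15.4% with dexfenfluramine. Without TMM 8 were higher and none lower with each drug, where 26.4% of all tested genes were higher with pergolide and 57.4% with dexfenfluramine. With serotonin 1 was lower, SNORA68, at 3.09 CPM ± 0.881 (SD, n = 5) compared to 7.70 ± 3.27 (SD, n = 5) in non-treated valves. DESeq2 called it too, limma-voom did not, and without TMM it was not called. Of all tested genes 0.15% were lower with serotonin, and of those with a symbol 0.145%. The median log2 fold change was 1.04 with pergolide, 0.97 with dexfenfluramine and 0.12 with serotonin.

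In pergolide compared to serotonin valves, 6 box H/ACA RNAs rose and 1 fell, against 12.4% of all tested genes higher and 15.1% lower, and 22% and 25.9% of those with a symbol. SNORA74 had the largest fitted rise, from 0.542 CPM ± 0.323 (SD, n = 5) to 3.65 ± 1.26 (SD, n = 5), which is 2.68 on the log2 scale (standard error 0.45), with an adjusted p of 0.000140 by edgeR's quasi-likelihood test with Benjamini-Hochberg adjustment. It rests on 10 reads in all serotonin valves together and 100 in all pergolide valves. Every serotonin valve held 3 reads or fewer and every non-treated valve 4 or fewer, so that SNORA74 passed the filter on low counts only through the drug groups. Its serotonin level was thus at or under the floor. The size and rank of this rise are not exact, and nothing is read from its p-value. The pergolide valves lay all above the serotonin valves, as for 8.38% of the tested genes. SNORA68 rose by 1.72 (standard error 0.27) and SNORA76 by 1.72 (standard error 0.37). Compared to non-treated valves, SNORA68 had 0.44 with pergolide, not called, and -1.29 with serotonin. SNORA76 had 1.38 with pergolide, called, and -0.34 with serotonin, not called. SNORA73B, which acts in processing of 18S ribosomal RNA, rose from 2.93 CPM ± 0.539 (SD, n = 5) to 8.38 ± 4.17 (SD, n = 5), with an adjusted p of 0.0105 by edgeR's quasi-likelihood test with Benjamini-Hochberg adjustment. In these 3 as well the valves did not overlap. SNORA7 was the one that fell, by 1.82 (standard error 0.39), from 21.6 CPM ± 14.0 (SD, n = 5) to 6.06 ± 1.64 (SD, n = 5).

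SNORA76 stands beside SNORND104 in the human genome, where both are cut from introns of the non-coding host gene SNHG25. In these valves the levels of the pair went apart. SNORA76 held 2.81 CPM ± 1.63 (SD, n = 5) without treatment, 2.25 ± 0.790 (SD, n = 5) with serotonin, 7.47 ± 1.70 (SD, n = 5) with pergolide and 7.25 ± 2.88 (SD, n = 5) with dexfenfluramine. The position of the rabbit genes and the host transcript were not analysed here.

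**Figure D4:**
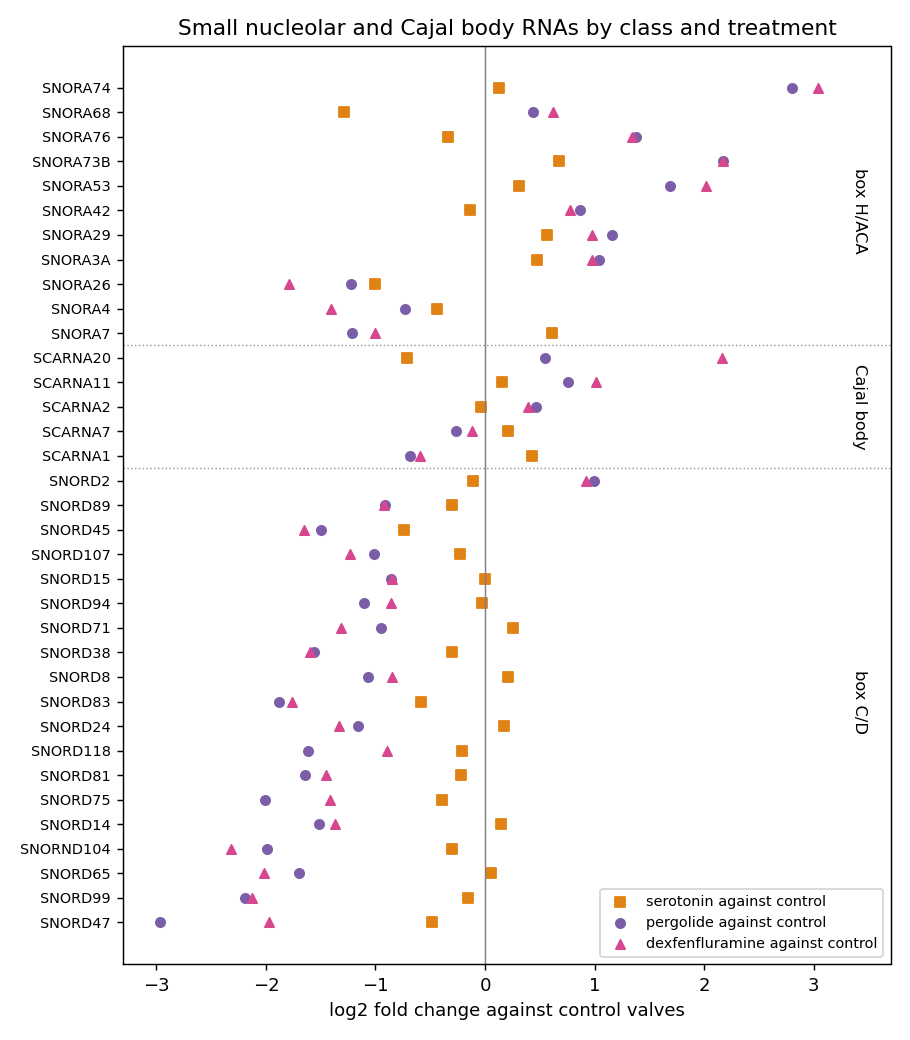
Log2 fold change of each tested small RNA compared to non-treated valves, by class, with serotonin as squares, pergolide as circles and dexfenfluramine as triangles. SCARNA20 is at 2.16 with dexfenfluramine and 0.55 with pergolide, whereas for most other RNAs the symbols of both drugs lie close together; the 3 comparisons share the non-treated valves.

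After TMM scaling, the other Cajal body RNAs did not share the pattern of SCARNA20 as a class. Of the 4 tested, edgeR called 1 higher with pergolide, 2 with dexfenfluramine and none with serotonin compared to non-treated valves, and none lower. Of all tested genes 12.1%, 13.5% and 1.04% were higher, and of those with a symbol 28.1%, 31.8% and 1.48%. Without TMM the higher ones numbered 2 with pergolide and 3 with dexfenfluramine, beside 26.4% and 57.4% of all tested genes. With pergolide 2 were lower at an unadjusted p under 0.05 and by DESeq2, and 1 by limma-voom; with dexfenfluramine 1 was lower at an unadjusted p under 0.05 and none by DESeq2 or limma-voom. For serotonin none had an unadjusted p under 0.05 by edgeR and none was called by DESeq2 or limma-voom. After TMM scaling SCARNA11 was the only one of the 4 with its highest mean in dexfenfluramine valves, with 2.01 CPM ± 0.715 (SD, n = 5) without treatment, 2.29 ± 0.512 (SD, n = 5) with serotonin, 3.50 ± 1.65 (SD, n = 5) with pergolide and 4.19 ± 0.526 (SD, n = 5) with dexfenfluramine. Its dexfenfluramine valves were all above the non-treated ones, as for 8.26% of the tested genes, but overlapped those of pergolide. Without TMM the log2 fold changes of all 4 were above 0 in dexfenfluramine compared to non-treated and to pergolide valves. Compared to serotonin valves 3 were then above 0.

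In pergolide compared to serotonin valves SCARNA2, which guides methylation of U2 RNA, rose by 0.50 (standard error 0.14). SCARNA1, a guide for U2 pseudouridylation, fell by 1.11 (standard error 0.25), and SCARNA7, a guide for U1 methylation, fell by 0.48 (standard error 0.11). SCARNA11 had a log2 fold change of 0.61 (standard error 0.30) and was not called. The directions within this class were therefore mixed, with a median of 0.01. In dexfenfluramine compared to serotonin valves, where 30.3% of all tested genes were called and of those with a symbol 25.1% were higher and 28.6% lower, 2 Cajal body RNAs were higher and 2 lower, 6 box H/ACA RNAs higher and 1 lower, and 1 box C/D RNA higher and 12 lower. Without TMM the lower ones numbered 0, 1 and 3 in this order of classes, where 2.35% of all tested genes were lower, and SCARNA7 changed from below to above 0.

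Summed over a class and leaving out SCARNA20 and SNORND104, the level of box C/D RNAs separated the drug groups from the others after TMM scaling. The lowest, median and highest sum was 104.5, 181 and 207 CPM in non-treated valves, 99.7, 134 and 284 after serotonin, 60.0, 69.9 and 84.3 after pergolide, and 71.0, 72.7 and 82.6 after dexfenfluramine. On total counts without TMM the groups overlapped. Dexfenfluramine replicate 3, at 124 CPM, then lay above control replicates 4 and 5, at 120.9 and 82.4 CPM, and serotonin replicates 3 and 4, at 96.7 and 104.5 CPM. Dexfenfluramine replicates 2 and 4, at 97.8 and 97.2 CPM, also lay above serotonin replicate 3. Of the drug-treated valves only pergolide replicates 1 and 2 and dexfenfluramine replicate 5 lay below control replicate 5. SNORD15 had the highest mean over the 20 valves, although SNORD81 was level with it in non-treated valves, at 33.8 CPM each. For box H/ACA RNAs the sums were 32.7, 42.0 and 85.6 CPM, 40.6, 49.9 and 95.9, 68.6, 91.6 and 94.3, and 75.4, 99.1 and 102 in the same order of groups, with overlap between all groups. Without TMM the drug valves, at 73.8 CPM or more, all lay above the others, at 63.2 CPM or less. SNORA53 contributed most in the drug groups, and SNORA7 in non-treated and serotonin valves. For Cajal body RNAs the median sums were 188, 213, 177 and 196 CPM, of which SCARNA7 made up most. Serotonin replicate 2, the valve of high SNORND104, had the highest sum of all 20 valves in box C/D RNAs, and in Cajal body RNAs with 275 CPM, and in neither without TMM.

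**Figure D5:**
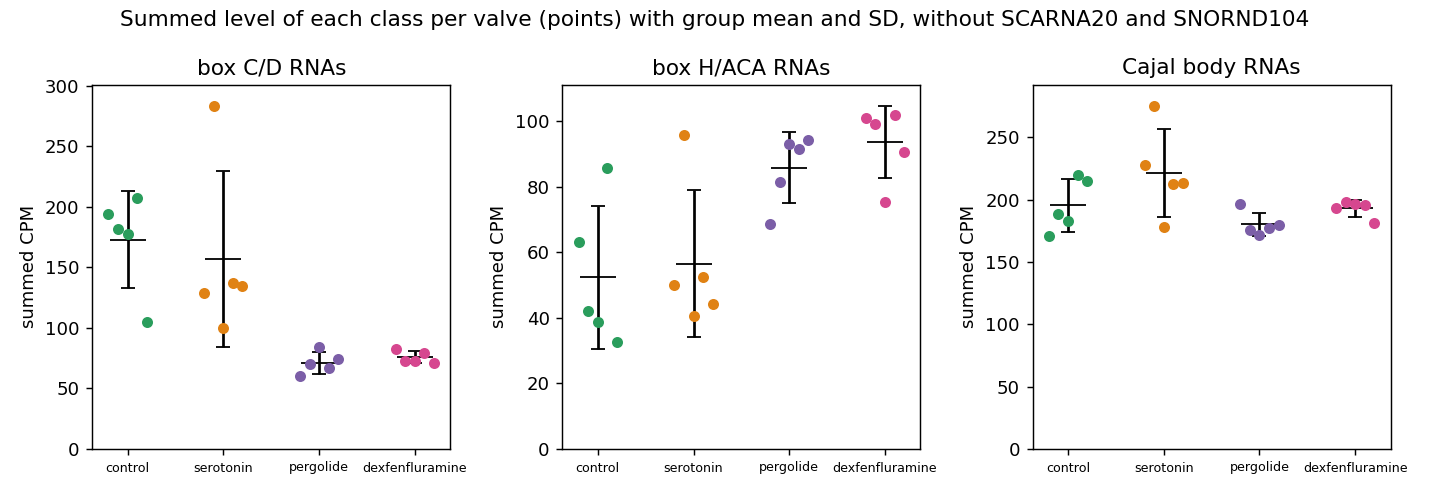
Summed level of box C/D, box H/ACA and Cajal body RNAs in each valve (points, in CPM not corrected for length), with the mean and SD of each group of 5. SCARNA20 and SNORND104 are left out; the sum of box C/D RNAs lies between 60.0 and 84.3 CPM in the 10 drug-treated valves and between 99.7 and 284 CPM in the 10 others, a gap that is lost without TMM.

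The class directions depended in part on scaling. Without TMM, the median of all tested genes moved up by 0.44 with pergolide, 0.67 with dexfenfluramine and 0.32 for pergolide compared to serotonin, and counts are relative to that shift. The share of called genes that were higher went from 48.8% to 96.3%, from 46.8% to 97.7% and from 45.1% to 85.4% in these comparisons. The numbers of lower box C/D RNAs were then 7, 6 and 6, where 1.00%, 1.36% and 2.67% of all tested genes were lower, while 17 of 18 fold changes remained below 0 in each. Of box H/ACA RNAs, SNORA4 and SNORA26 changed from below to above 0 in pergolide compared to serotonin valves; of Cajal body RNAs, SCARNA7 changed in both drugs and SCARNA1 in dexfenfluramine compared to non-treated valves. Of the RNAs named in pergolide compared to serotonin valves, SNORD99, SNORD14, SNORD81, SNORD2, SNORA73B and SCARNA2 lost their call with svaseq, SNORA73B also with limma-voom, and SCARNA1 and SCARNA7 without TMM, each with its direction kept.

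Transcripts of proteins that bind these RNAs or help to assemble them could be examined only where the DEG table gave a symbol, which selects for genes that changed, so that nothing is read from how many of a list were called. Of 12 listed genes for proteins of box H/ACA particles and Cajal bodies, 5 had a symbol and were tested, and in pergolide compared to serotonin valves 4 fell and none rose, against 15.1% lower among all tested genes and 25.9% among those with a symbol, also at an unadjusted p under 0.05 and by DESeq2 or limma-voom. The median was -0.61 against 0.03 over all tested genes. GAR1, a core protein of every box H/ACA particle, fell by 1.20 (standard error 0.21), from 11.1 CPM ± 2.21 (SD, n = 5) to 4.81 ± 0.821 (SD, n = 5), with an adjusted p of 0.000173 by edgeR's quasi-likelihood test with Benjamini-Hochberg adjustment. SMN1, which assembles spliceosomal particles and is found in Cajal bodies, fell by 0.58 (standard error 0.11). WRAP53, which brings these RNAs to Cajal bodies, had a log2 fold change of 0.42 (standard error 0.27) and was not called. Compared to non-treated valves it had 0.43 with pergolide and 0.61 with dexfenfluramine, neither called, the latter at an unadjusted p under 0.05. Without TMM 1 of the 5 was called lower, and SMN1 lost its call.

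Among 11 symbols of box C/D proteins and assembly factors, which include an older name of ZNHIT6, 2 genes were tested. ZNHIT6, an assembly factor of box C/D particles, fell by 1.39 (standard error 0.16) in pergolide compared to serotonin valves, with an adjusted p of 1.76e-06 by edgeR's quasi-likelihood test with Benjamini-Hochberg adjustment. RUVBL1, a helicase used in that assembly and elsewhere, had a log2 fold change of -0.02 (standard error 0.29), whose sign changed with the setting. The core proteins of these particles had no symbol in the table used and were not analysed here.

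Of 15 listed components of the minor spliceosome, to which the predicted target of SCARNA20 belongs, 3 had a symbol and were tested, and these 3 fell in pergolide compared to serotonin valves, against the same 15.1% and 25.9%. SCNM1, lost its call with svaseq and without TMM. The other 12 were not analysed here, and the list as a whole is not described by these 3. ZRSR2, which recognizes the end of minor introns, fell by 1.29 (standard error 0.15), from 41.0 CPM ± 7.18 (SD, n = 5) to 16.7 ± 0.575 (SD, n = 5), with an adjusted p of 1.89e-06 by edgeR's quasi-likelihood test with Benjamini-Hochberg adjustment. ZCRB1 fell by 1.09 (standard error 0.14). U12 itself was not analysed here. Compared to non-treated valves, the lower genes of these 3 lists numbered 3 of 5, 1 of 2 and 3 of 3 with pergolide, and 4 of 5, 2 of 2 and 2 of 3 with dexfenfluramine, where 12.7% and 15.4% of all tested genes and 28.6% and 34.3% of those with a symbol were lower. Most of these calls were lost without TMM, which left 0, 1 and 1 lower with pergolide and 0, 0 and 0 with dexfenfluramine, where 1 gene of the first list was then higher. None was called with serotonin by edgeR, where 1 minor spliceosome gene was higher at an unadjusted p under 0.05 and by DESeq2 and limma-voom. Without TMM, NOLC1 and SMN1 with both drugs, RUVBL1 with pergolide, and ZCRB1 and SCNM1 with dexfenfluramine changed from below to above 0.

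Over the 20 valves, the genes with the closest pattern to SCARNA20 in log2 CPM were USP19, AP1G1, SACM1L, CASD1 and ATM, with Pearson correlations of 0.881, 0.865, 0.863, 0.848 and 0.836. USP19, a ubiquitin protease, held 37.9 CPM ± 2.71 (SD, n = 5) without treatment and 52.6 ± 6.92 (SD, n = 5) with dexfenfluramine, a far smaller difference than that of SCARNA20. The closest to SNORND104 were DNAJC8, ENSOCUG00000019001, ITSN2, RNF214 and HNRNPU, with 0.917, 0.880, 0.873, 0.873 and 0.871. DNAJC8, a co-chaperone associated with splicing, held 52.6 CPM ± 2.98 (SD, n = 5) without treatment, 53.8 ± 7.81 (SD, n = 5) with serotonin, 34.6 ± 0.589 (SD, n = 5) with pergolide and 32.1 ± 2.73 (SD, n = 5) with dexfenfluramine. These genes were picked as the closest of 8683, the valves share treatment groups, and after removal of the group means the correlations of the leading genes were 0.614 for USP19 and 0.753 for DNAJC8.

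Some markers of cell types differed between the groups, and these too had a symbol only if the DEG table named them. Of 10 listed markers of valvular interstitial cells, the main cells of the leaflets, 7 were tested, of which 5 were higher with pergolide and 4 with dexfenfluramine compared to non-treated valves, where 12.1% and 13.5% of all tested genes and 28.1% and 31.8% of those with a symbol were higher. Their sum, in which VIM was the most abundant gene, made up 0.684, 0.611, 0.752, 0.507 and 0.549% of the scaled counts in non-treated valves and 0.713, 0.566, 0.753, 0.692 and 0.700% in serotonin valves. It made up 0.726, 0.809, 0.689, 0.876 and 1.04% in pergolide valves and 0.844, 0.914, 1.08, 0.763 and 0.848% in dexfenfluramine valves. The dexfenfluramine valves were all above the non-treated and serotonin ones, though without TMM control replicate 3 lay within their range.

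Of 12 cardiomyocyte markers 6 were tested, of which edgeR called 1 lower with pergolide and 2 with dexfenfluramine, against 12.7% and 15.4% of all tested genes and 28.6% and 34.3% of those with a symbol. After TMM scaling all 6 were below 0 with each of the 3 treatments. With pergolide ACTC1 had -0.0057 (standard error 0.37) and TTN -0.44 (standard error 0.37), where the median of all tested genes moved up by 0.44 without TMM. The directions of these markers without TMM were not analysed here. The median log2 fold change was -0.97 for dexfenfluramine, -0.47 for pergolide and -0.53 for serotonin. With dexfenfluramine 4 were lower by DESeq2, by limma-voom and at an unadjusted p under 0.05. Their sum, mostly TTN, made up 13.7, 10.3, 4.78, 14.6 and 9.36% of the scaled counts in non-treated valves and 5.16, 10.1, 5.80, 9.37 and 6.14% in serotonin valves. It made up 7.97, 8.95, 8.95, 5.11 and 4.66% in pergolide valves and 6.88, 5.09, 1.21, 5.87 and 6.89% in dexfenfluramine valves. Without TMM the sums ran from 59510 to 90540 CPM in non-treated and from 56250 to 71560 CPM in serotonin valves. They ran from 58350 to 88630 CPM in pergolide valves, much the same range as without treatment, and from 20720 to 80140 CPM in dexfenfluramine valves. Dexfenfluramine replicate 3 had the lowest share of the 20 valves, and its SCARNA20 and SNORND104 levels were 7.74 and 2.70 CPM, the latter the highest of its group; without TMM it was the highest of its group in both, with 13.2 and 4.62 CPM. None of the tested markers of these lists was at 0 in a group.

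The remaining marker lists were sparse. Of 7 adipocyte markers, ADIPOQ and CIDEA were tested, and both were higher with pergolide compared to non-treated valves, 1 of them not by limma-voom, where 12.1% of all tested genes and 28.1% of those with a symbol were higher. PECAM1, the endothelial marker tested of 5, was lower with pergolide, where 12.7% of all tested genes and 28.6% of those with a symbol were lower. Of 4 smooth muscle markers 2 were tested. MYH11 was lower with dexfenfluramine, beside 15.4% of all tested genes and 34.3% of those with a symbol. TAGLN was higher with both drugs, with pergolide not by limma-voom. With dexfenfluramine 13.5% of all tested genes and 31.8% of those with a symbol were higher. None of the 5 macrophage and 4 erythroid markers had a symbol. The part of these cell types in the levels of SCARNA20 and SNORND104 was not tested.

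The low counts and the counting itself limit these values. Families of small RNAs have near-identical copies, and reads from an unprocessed host intron overlap the small RNA inside it, so that mature RNA and host transcript cannot be told apart in these counts.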

How the data were processed

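Tricuspid valves of 20 rabbits, 5 per group, were analysed from the table of read counts per gene that the authors deposited. Per the methods of the study, ribosomal RNA was removed, stranded libraries (SMARTer Stranded) were sequenced, and trimmed reads were mapped to oryCun2, a build of the rabbit genome. The submitters' processing notes name TopHat2 2.1.1, Picard and HTSeq, and HTSeq counted in union mode. The annotation release, the strand setting of the counting and the handling of reads with several positions are not given in the sources used here. The deposited counts carry no normalization, and the table covers 23669 genes.

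Columns were assigned to valves by their letter and number. Counts were scaled by TMM and filtered by filterByExpr in edgeR 4.0.16 (R 4.3.3), which left 8683 genes for edgeR's quasi-likelihood test, fitted to the 20 valves together, with Benjamini-Hochberg adjustment and a threshold of 0.05. CPM used the TMM-scaled totals, log2 CPM a prior count of 2, and standard errors are the log2 fold change divided by the root of the F statistic. Exact permutation tests and Poisson intervals at 95% were computed with scipy 1.17.1, and counts of 3 or fewer were treated as the floor. On simulated counts for pergolide against serotonin (8522 genes), 84 of 97 genes changed by 1 on the log2 scale and 96 of 99 changed by 2 were called, as were 12 unchanged genes.

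Symbols came from the DEG table of the study, of whose 3799 entries 183 could not be matched, so that 39.8% of the tested genes had one. No identifier matched the RefSeq table of assembly mOryCun1.1, and neighbouring genes and the qPCR reference RNA of the study were not analysed here. Both members and all lists were chosen with earlier results of these data known. SNORD47 and SNORD75 were named after their low reads were seen. Named genes are both members, the 5 genes of the highest correlation with each, every tested SCARNA gene, the 4 largest rises and falls of small RNAs in pergolide compared to serotonin valves among called genes with an average log2 CPM of 1 or more and separate groups, from each protein list the 2 of smallest p-value, WRAP53 as the tested gene of its list that was not called, genes that lost a call or changed direction with the setting, the neighbours in rank of both members, the largest contributors to a sum and the tested genes of short marker lists. Alternatives were DESeq2 1.42.0, limma-voom (limma 3.58.1), svaseq (sva 3.50.0, 4 variables), DESeq2 size factors, totals without the most abundant gene, only the groups compared, a block for the replicate number, no filter, a filter of 10 counts per valve, each valve left out and, added after the data were seen, totals without TMM.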

Additional observations from a re-analysis of the deposited data

Results flagged for a closer look

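Of 52 sets of 5 valves examined for a valve far from the others of its group, 7 were noted, and chance alone notes about 1 in 20 such sets. SCARNA20 stood at 2.56 CPM in serotonin replicate 1, far above the other serotonin valves, which held 0.292 to 0.843 CPM. SNORND104 stood at 18.4 CPM in serotonin replicate 2, where the others held 3.96 to 5.26 CPM.

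The same valve, serotonin replicate 2, was far above the rest of its group in the summed box C/D RNAs, with 284 CPM, in the summed box H/ACA RNAs, with 95.9 CPM, and in all small RNAs together, with 655 CPM. In dexfenfluramine replicate 5 the sum of Cajal body RNAs was 181.5 CPM, below the others of its group. In control replicate 4 the sum of the adipocyte markers was 66.5 CPM, above the others of its group.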

How the results depend on the processing

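Low counts limit SCARNA20 in non-treated and serotonin valves and SNORND104 in drug-treated valves, and the filter of at least 10 counts in every valve left neither RNA, while the fit of only the groups compared gave no value of SCARNA20 for serotonin compared to non-treated valves. The direction of both RNAs in pergolide compared to serotonin valves was the same under all alternatives that gave a value. For SCARNA20 DESeq2 gave 1.29 (called), and the fits with each valve left out gave 1.05 to 2.08. For SNORND104 svaseq gave -1.08 (not called), and the left-out fits gave -2.01 to -1.09. The number of genes called in this comparison, 2389, became 1549 with svaseq and 1592 without TMM, and 2079 to 2214 with a valve left out; the cause was not tested.

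In the other comparisons, with a valve left out, SCARNA20 ranged from -1.52 to -0.20 for serotonin and from 2.66 to 3.69 for dexfenfluramine compared to serotonin, both moved most by serotonin replicate 1, and SNORND104 had -1.41 for dexfenfluramine compared to serotonin without serotonin replicate 2. Without TMM, SNORND104 had -1.61 for dexfenfluramine compared to non-treated and -1.36 compared to serotonin valves, the number of lower box C/D RNAs was 7 with pergolide, 6 with dexfenfluramine, 6 for pergolide and 3 for dexfenfluramine compared to serotonin, and 1 protein of box H/ACA particles and Cajal bodies was lower.

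In pergolide compared to serotonin valves directions reversed, none of them called, for SNORA4 with 0.00318 and SNORA26 with 0.13 without TMM, and for WRAP53 with -0.18 with svaseq. RUVBL1 reversed to 0.00240 with no filter, 0.33 without TMM and 0.0317 with the replicate block, and ranged from -0.11 to 0.14 with a valve left out, above 0 without serotonin replicate 2, pergolide replicate 4 or pergolide replicate 5. Over 43 list genes in pergolide compared to serotonin valves, 356 of 401 alternative values kept their call, 37 lost it, 2 gained it and 6 changed direction; of 430 with a valve left out 405 kept it, 17 lost it, 5 gained it and 3 changed direction.

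The replicate numbers showed no clear pairing of the valves. Correlations of same-numbered valves ran from -0.342 to 0.492, both in replicate 3, and 3 of 20 valves were closest to their own number. Whether some same-numbered valves were handled together cannot be told from these values. With the replicate number as a block, SCARNA20 had 1.34 and SNORND104 -1.64, neither call changed, and 2228 genes were called.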
